A study of Mus musculus with 6 samples.

Results

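Integrins are the receptors by which fibroblasts hold the extracellular matrix, and focal adhesions are the protein plaques that tie them to actin. The 41 genes described here were taken by symbol from a fixed list. It comprises 18 integrin subunits, 1 matrix ligand (Npnt) and 22 genes of plaque proteins. All 41 symbols matched an Ensembl identifier of the deposited table, which holds 55471 genes. The cells were 10T1/2, a mouse embryonic fibroblast line, grown in serum and untreated. PolyA RNA was sequenced from 3 libraries labelled Ranbp2 KO, in which the gene of the nuclear pore protein Ranbp2 was targeted with CRISPR/Cas9, and from 3 WT libraries of the same line. The design text calls them biological replicates. Whether they come from 1 clone or several is not stated, and neither is the way cultures were kept apart, so a p-value here reflects only differences among these 6 libraries, which may be technical.

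An integrin is a dimer of 1 alpha and 1 beta subunit. The pair decides the ligand: some dimers bind collagen, some laminin, and others the RGD motif of fibronectin, vitronectin and similar proteins. Talin and kindlin bind the short beta tail inside the cell and switch the receptor on. A plaque of ILK, PINCH and parvin, of kinase scaffolds such as paxillin and p130Cas, and of actin-binding proteins such as vinculin, alpha-actinin and zyxin then assembles on it. In fibroblasts the plaque senses and carries contractile force.

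Ranbp2 mRNA itself was not lower in the libraries labelled KO, at 293.8, 288.7 and 292.7 CPM (counts scaled to a common library size) against 219.6, 249.96 and 248.8 CPM in WT libraries. An exact two-sided permutation test of these values gave p = 0.1, the smallest that 3 against 3 libraries allow. In edgeR's fit over all genes Ranbp2 was higher by 0.28 on the log2 scale (SE 0.07, adjusted p = 0.012). Counts of mRNA do not show whether the protein was lost. The libraries are therefore called KO-labelled, and rises and falls are given for them relative to WT. Total expected counts ran from 32072817 to 39378190 in KO-labelled and from 41354198 to 46321967 in WT libraries. Of the 8 fibroblast markers examined, 3 were higher (Dcn, Col3a1 and Pdgfra) and 3 lower (Thy1, Col1a1 and Pdgfrb), where 17.6% of all genes tested were higher and 21.3% lower, and their summed level was 14835 to 16544 CPM in KO-labelled and 14798 to 17848 CPM in WT libraries. Thy1, a surface marker of fibroblasts, was nearly absent from the KO-labelled libraries, at 0.533 ± 0.216 CPM against 58.3 ± 2.45 CPM in WT libraries (SD, n = 3 each). Dcn, a proteoglycan gene of fibroblasts, averaged 19.5 ± 2.10 CPM in KO-labelled and 4.94 ± 0.844 CPM in WT libraries. In bulk RNA, fewer cells of a kind and less RNA per cell cannot be told apart.

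Promoter windows are shown for Itga8, the subunit without a read in KO-labelled libraries, and Zyx, the plaque gene with the largest decrease. Vcl and Fermt2 were picked for their motif, as the only members with a CArG box among the 30 with a RefSeq window. The windows shown are the 250 bases before the RefSeq transcription start, 5′ to 3′ on the gene's strand, build GRCm38.p6: Itga8 at chr2:12301945-12302194 (minus), Vcl at chr14:20929148-20929397 (plus), Fermt2 at chr14:45530066-45530315 (minus) and Zyx at chr6:42349578-42349827 (plus). Capitals mark motif letters, which on the opposite strand read as the reverse complement.
Itga8: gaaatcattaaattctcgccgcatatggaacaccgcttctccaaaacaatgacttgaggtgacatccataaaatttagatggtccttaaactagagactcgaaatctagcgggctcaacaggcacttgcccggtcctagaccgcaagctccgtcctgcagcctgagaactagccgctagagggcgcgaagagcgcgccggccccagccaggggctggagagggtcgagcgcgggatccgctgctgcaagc
Vcl: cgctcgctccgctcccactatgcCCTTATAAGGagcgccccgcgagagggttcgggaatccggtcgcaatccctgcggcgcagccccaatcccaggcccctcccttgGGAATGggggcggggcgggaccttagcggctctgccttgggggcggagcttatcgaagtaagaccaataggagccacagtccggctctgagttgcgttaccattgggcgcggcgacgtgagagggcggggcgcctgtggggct
Fermt2: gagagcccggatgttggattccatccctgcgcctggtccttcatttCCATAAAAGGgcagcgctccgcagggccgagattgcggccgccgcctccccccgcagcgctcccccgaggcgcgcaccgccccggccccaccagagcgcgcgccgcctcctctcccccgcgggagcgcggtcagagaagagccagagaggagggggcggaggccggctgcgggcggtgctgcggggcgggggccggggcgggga
Zyx: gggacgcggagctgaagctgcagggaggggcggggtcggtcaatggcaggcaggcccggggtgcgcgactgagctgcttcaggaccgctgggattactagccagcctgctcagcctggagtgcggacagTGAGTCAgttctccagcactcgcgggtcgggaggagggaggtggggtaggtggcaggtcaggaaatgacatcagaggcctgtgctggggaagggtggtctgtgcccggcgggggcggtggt
In Vcl the CArG box, the site read by serum response factor, began 227 bases before the start and the TEAD core GGAATG 143 bases before it. In Fermt2 the CArG box began 204 bases before the start. In Zyx the AP-1 letters TGANTCA began 121 bases before the start. The Itga8 window held none of the 3 motifs, which says only that these letters are not in it. Over windows from 250 bases before to 50 after a start, searched on both strands, a CArG box was found in 2 of the 30 members with a window and in 1.81% of 27025 genes. GGAATG was found in 6 of these members (Actn4, Flna, Flnc, Itga10, Itgb1 and Vcl) and in 16.6% of genes, and TGANTCA in 4 (Actn4, Itga3, Itga9 and Zyx) and in 8.97% of genes. Matches of different motifs did not overlap in any member. A match is a description of the sequence, not evidence of binding.

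Most of these genes were lower in KO-labelled cells. The 4 that rose were the integrin subunits Itga4, Itgb3 and Itgb8 and the plaque gene Tns1. Of the 41 members, 39 passed the filter on low counts, and 25 of them fell, 4 rose and 10 did not pass the test (edgeR quasi-likelihood test, adjusted p below 0.05). Over all 15454 genes tested, 21.3% fell and 17.6% rose, 38.9% in all. The median log2 difference was -0.35 over the tested members and 0.01 over all genes tested. The KO-labelled and WT values did not overlap for 31 tested members, against 51.4% of all genes. Of the 17 tested integrin subunits, 8 fell and 3 rose, with a median of -0.24; of the 21 tested plaque genes, 16 fell and 1 rose, with a median of -0.35. Decreases of at least 2-fold were found for 6 members, against 5.73% of all genes, and increases of that size for 2, against 4.41%. Itga8 and Itga9 passed the filter only through the WT libraries, since no KO-labelled library reached its limit, so these had to differ once they were tested. Itga4 was above the limit in all 3 KO-labelled but only 2 WT libraries, so only the KO-labelled group met it in full. The counts above include Itga4, Itga8 and Itga9. Their adjusted p-values are not given, since the filter bears on them. Itga2, a collagen receptor subunit, did not pass it, with 11 counts over the KO-labelled and 24 over the WT libraries, and Fermt1, the kindlin of epithelia, had 0 counts in all 6 libraries.

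**Figure D1:**
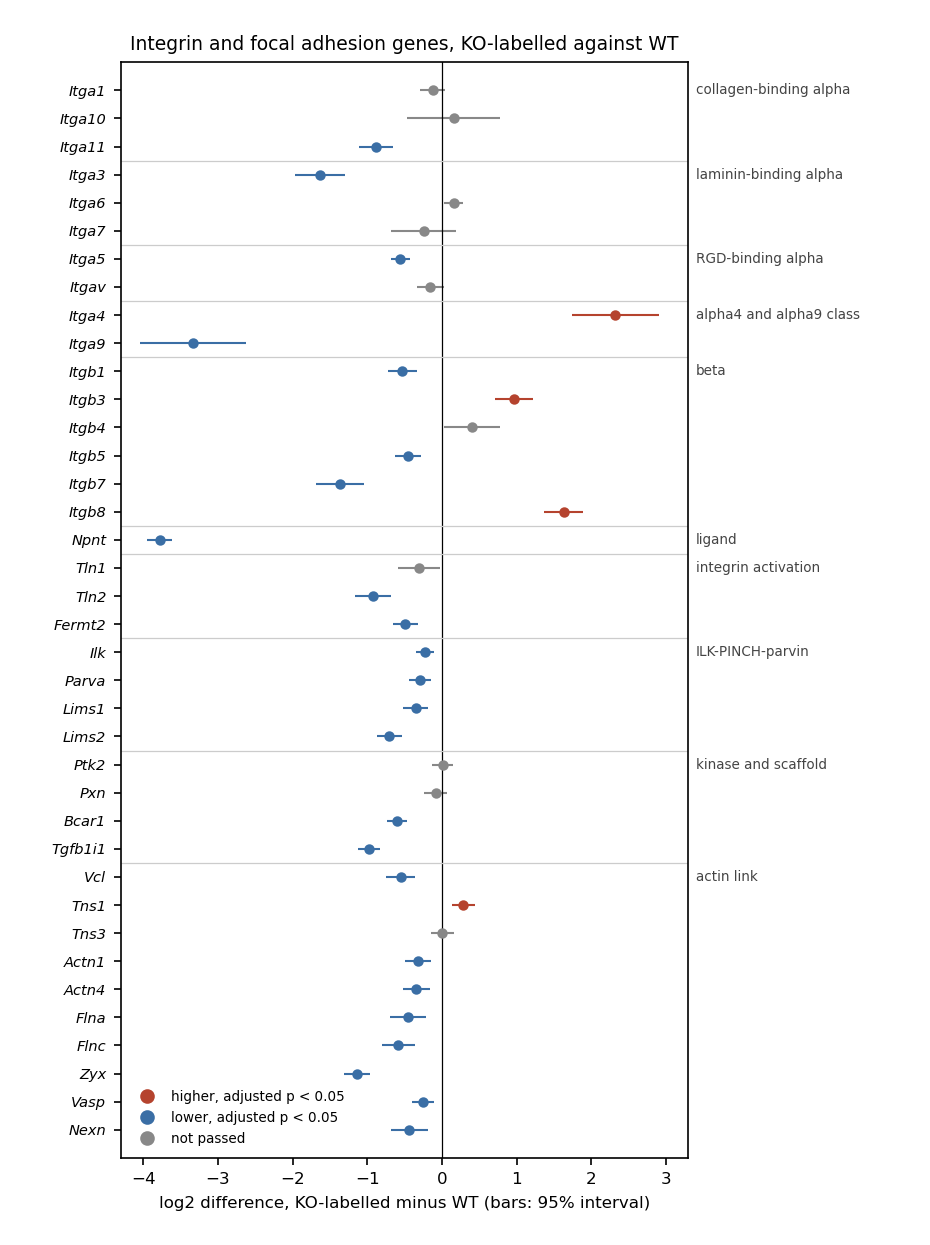
Log2 difference (KO-labelled minus WT, x axis) of 38 of the 39 tested members, grouped by role, with bars for the 95% interval; red, blue and grey points are higher, lower and not passed. Itga8, with 0 counts in the KO-labelled libraries, has no finite difference and is left out; Npnt (-3.78) and Itga9 (-3.34) lie farthest to the left and Itga4 (2.32) and Itgb8 (1.63) farthest to the right.

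Both a receptor subunit for nephronectin and nephronectin itself were strongly lower. Itga8 encodes the alpha subunit of α8β1, an RGD-binding integrin of mesenchymal cells (ENSMUSG00000026768, chromosome 2, 12106632 to 12301922, minus strand, GRCm38). It had 0 CPM in each of the 3 KO-labelled libraries and 7.42, 7.63 and 9.03 CPM in the WT libraries. With the floor set at 3 counts over the KO-labelled group, or 0.0276 CPM, it was at least 290.2-fold lower. Npnt, the gene of nephronectin, a basement membrane ligand of α8β1 (ENSMUSG00000040998, chromosome 3, 132881745 to 132950291, minus strand), stood at 4.10, 4.47 and 4.18 CPM in KO-labelled libraries, against 57.0, 56.0 and 62.4 CPM in WT libraries. The groups were far apart and tight: the log2 difference was -3.78 (SE 0.09, edgeR adjusted p = 4.84e-09). Itga8 and Npnt are on different chromosomes, whose median log2 differences were -0.11 and 0.01. Other genes of RGD ligands did not move in 1 direction: Fn1, encoding fibronectin, rose to 14511 ± 2736 CPM in KO-labelled libraries, against 5860 ± 269 CPM in WT libraries (1.31, SE 0.15, edgeR adjusted p = 0.000133), Spp1, encoding osteopontin, rose by 1.78, Tnc, encoding tenascin C, fell by 1.25 (SE 0.11), and Egfl6 and Vtn were too low to be tested.

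The 2 most abundant alpha subunits, both RGD-binding, moved by different amounts. Itga5, the fibronectin receptor subunit, fell to 142 ± 4.16 CPM in KO-labelled libraries, against 208.9 ± 11.5 CPM in WT libraries (SD, n = 3 each), a log2 difference of -0.55 (SE 0.07, edgeR adjusted p = 0.000183). Itgav, which pairs with several beta subunits to bind vitronectin, fibronectin and latent TGF-beta, averaged 320.5 ± 12.6 CPM in KO-labelled and 356 ± 40.5 CPM in WT libraries, and its difference of -0.15 (95% interval -0.33 to 0.02) did not pass. Without WT library 1 that difference was -0.25 and was called (edgeR adjusted p = 0.031). Per kilobase of exon, the level of Itgav was 29.8 ± 1.17 CPM per kb and that of Itga5 28.8 ± 0.843 CPM per kb in KO-labelled libraries, a gap smaller than the SD of Itgav. In WT libraries the Itga5 level stood first, at 42.3 ± 2.34 CPM per kb, and Itgav second, at 33.2 ± 3.77 CPM per kb.

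Among laminin-binding alpha subunits, Itga3 fell and the far more abundant Itga6 did not. Itga3, of the laminin receptor α3β1, stood at 1.83, 1.69 and 1.37 CPM in KO-labelled libraries, against 5.30, 5.42 and 4.51 CPM in WT libraries. The groups did not overlap, and the log2 difference was -1.63 (SE 0.17, edgeR adjusted p = 5.97e-05). Itga6 averaged 85.0 ± 3.17 CPM in KO-labelled and 76.2 ± 1.66 CPM in WT libraries, and although the groups did not overlap, the difference of 0.16 did not pass (adjusted p = 0.0756 by edgeR). It lies on chromosome 2, where the median log2 difference of tested genes was -0.11. With chromosome medians taken out its difference was 0.26 and was called (edgeR adjusted p = 0.0102), and it was also called with library size alone (0.0459) and with a filter of 1 CPM (0.0374). Itga7, the laminin receptor subunit of muscle, was low, at 3.21 ± 0.780 CPM in KO-labelled and 3.81 ± 0.850 CPM in WT libraries, and did not pass.

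Of the collagen-binding alpha subunits, Itga11 fell. Its product is the receptor of fibroblasts for fibrillar collagen, and its level was 10.4, 12.8 and 12.3 CPM in KO-labelled libraries, against 25.1, 20.9 and 19.4 CPM in WT libraries. The groups did not overlap, and the log2 difference was -0.88 (SE 0.12, edgeR adjusted p = 0.000294). Itga1, the other collagen receptor subunit at a sizeable level, averaged 31.8 ± 3.21 CPM in KO-labelled and 34.6 ± 0.728 CPM in WT libraries, with a difference of -0.13 (95% interval -0.29 to 0.04) that did not pass. Itga1 lies on chromosome 13, where the median log2 difference of tested genes was -0.28. With chromosome medians taken out its difference was 0.16 and was not called. Of the summed level of the 4 collagen-binding subunits per kilobase of exon, Itga11 held 53.5% ± 1.84 in KO-labelled and 66.5% ± 1.52 in WT libraries, and Itga1 held 39.7% ± 0.807 in KO-labelled and 29.4% ± 2.67 in WT libraries (SD, n = 3 each). Itga10, a collagen receptor subunit of cartilage, stood at 1.43 ± 0.282 CPM in KO-labelled and 1.28 ± 0.523 CPM in WT libraries and did not pass; 1739 of its exonic bases are shared with another gene model on the same strand.

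The α4 and α9 subunits, close relatives that both bind VCAM1 and osteopontin, moved in opposite directions at low levels. Itga4 rose to 1.44, 1.10 and 1.34 CPM in KO-labelled libraries, against 0.289, 0.196 and 0.285 CPM in WT libraries. Its log2 difference was 2.32 (SE 0.30). It rests on 33.02 WT counts in all. Cerkl, a gene on the opposite strand that shares 1124 exonic bases with Itga4, rose as well, by 1.61 (SE 0.34), and with the strand setting of the counting not given the reads of the pair cannot be told apart. Itga9 was at 0.130, 0.205 and 0.0639 CPM in KO-labelled libraries, against 1.49, 1.41 and 1.33 CPM in WT libraries. The log2 difference was -3.34 (SE 0.36), on 15 KO-labelled and 183 WT counts. The groups of Itga4 did not overlap, although only its KO-labelled group met the limit of the count filter in full. For Itga9 every WT library and no KO-labelled library was above that limit. Its groups therefore could not overlap once it was tested, and their separation adds nothing to the difference.

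**Figure D2:**
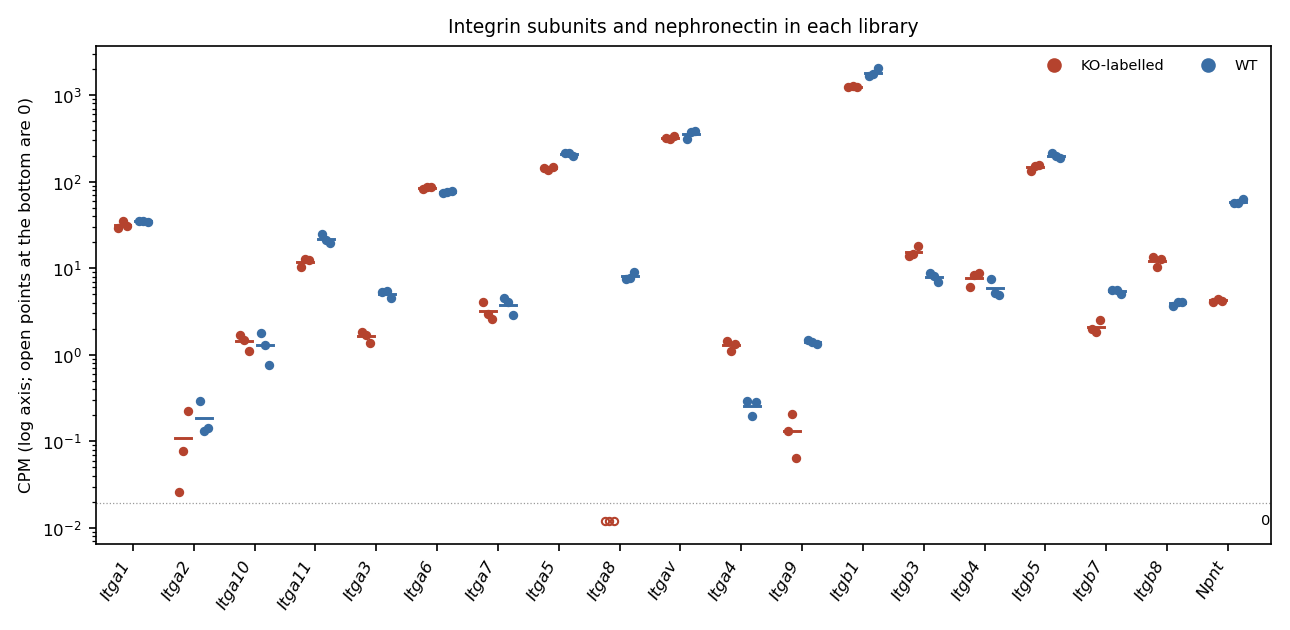
CPM of the 18 integrin subunits and Npnt in each library on a log axis, KO-labelled (red) left of WT (blue); short lines are means of 3 libraries and open points at the bottom are libraries at 0. Itga8 was at 0 in all KO-labelled libraries, Npnt stood at 4.10 to 4.47 CPM in KO-labelled against 56.0 to 62.4 CPM in WT libraries, and Itgb3, Itgb8 and Itga4 were the subunits that rose.

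Beta subunits shifted in both directions, with the abundant ones lower and 2 scarce ones higher. Itgb1, the common partner of most fibroblast alpha subunits (ENSMUSG00000025809, chromosome 8, 128685654 to 128733200, plus strand), fell to 1255 ± 12.98 CPM in KO-labelled libraries, against 1812 ± 211 CPM in WT libraries (SD, n = 3 each), a log2 difference of -0.53 (SE 0.10, edgeR adjusted p = 0.00235). Itgb5, a partner of αv that binds vitronectin, fell to 146 ± 12.6 CPM in KO-labelled libraries, against 199.5 ± 15.7 CPM in WT libraries, a difference of -0.45 (SE 0.09). Itgb3, the subunit of the vitronectin receptor αvβ3, rose to 13.9, 14.8 and 18.04 CPM in KO-labelled libraries, against 8.81, 8.20 and 6.87 CPM in WT libraries, a log2 difference of 0.97 (SE 0.13, edgeR adjusted p = 0.000321). Itgb8, whose dimer with αv activates latent TGF-beta, rose to 13.6, 10.2 and 12.9 CPM in KO-labelled libraries, against 3.68, 4.09 and 4.04 CPM in WT libraries, a difference of 1.63 (SE 0.13, adjusted p = 1.3e-05 by edgeR). For both genes the KO-labelled values were the higher ones throughout. Itgb1 still held 86.8% ± 0.969 of the summed beta subunit level per kilobase of exon in KO-labelled and 87.9% ± 1.99 in WT libraries. The shares of Itgb3 were 0.744% ± 0.0984 in KO-labelled and 0.271% ± 0.0566 in WT libraries, and those of Itgb8 0.313% ± 0.0499 in KO-labelled and 0.0708% ± 0.00525 in WT libraries.

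The remaining beta subunits are typical of other cell types. Itgb7, the partner of α4 in lymphocyte homing, stood at 1.98, 1.82 and 2.52 CPM in KO-labelled libraries, against 5.61, 5.61 and 4.99 CPM in WT libraries, without overlap, a log2 difference of -1.36 (SE 0.16, edgeR adjusted p = 0.000163). Of 6 leukocyte markers, 2 were high enough to be tested and 1 of them (Lyz2) was higher, against 17.6% of all genes tested. The summed level of the 6 was 2.08 to 3.24 CPM in KO-labelled and 1.83 to 2.42 CPM in WT libraries. Ptprc, which marks leukocytes, was at 0.0606 ± 0.0657 CPM in KO-labelled and 0.00792 ± 0.0137 CPM in WT libraries. Itgb4, the hemidesmosome subunit of epithelia, averaged 7.74 ± 1.44 CPM in KO-labelled and 5.85 ± 1.44 CPM in WT libraries. Its difference of 0.40 (95% interval 0.02 to 0.78) did not pass (edgeR unadjusted p = 0.065, adjusted p = 0.128). It was called without WT library 1 (0.62, adjusted p = 0.0248 by edgeR) and without a count filter (0.37, 0.0445). Of 5 epithelial markers, only Cdh1 was tested and it was higher, against the same 17.6% of all genes tested. The list summed to 6.13 to 9.03 CPM in KO-labelled and 2.16 to 2.60 CPM in WT libraries, with Epcam near 0. The part of these markers in the Itgb4 values was not tested.

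Summed over subunits, integrin mRNA was lower in every KO-labelled library. The 12 alpha subunits together gave 73.2 ± 1.79 CPM per kb in KO-labelled and 92.99 ± 2.30 CPM per kb in WT libraries, and the 6 beta subunits 354 ± 6.02 CPM per kb in KO-labelled and 505 ± 47.3 CPM per kb in WT libraries (SD, n = 3 each). Of the alpha total, Itgav held 40.8% ± 0.617 in KO-labelled and 35.6% ± 3.60 in WT libraries, Itga5 39.4% ± 0.706 in KO-labelled and 45.5% ± 2.73 in WT libraries, and Itga6 12.9% ± 0.529 in KO-labelled and 9.08% ± 0.227 in WT libraries. The groups did not overlap for any of the 3 shares, with Itgav and Itga6 higher and Itga5 lower in KO-labelled libraries. These shares describe mRNA only, and no test was made on them.

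**Figure D3:**
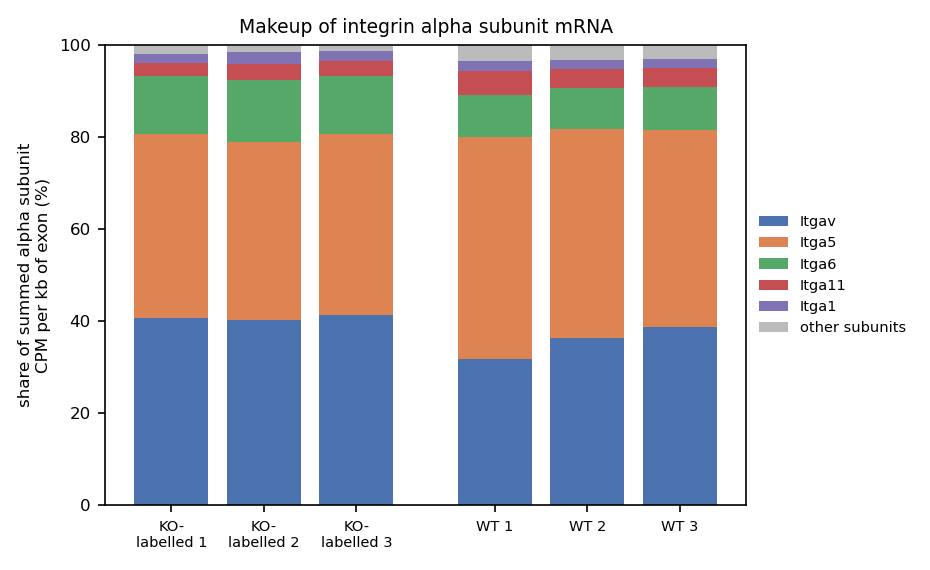
Share (%) of each alpha subunit in the summed CPM per kb of exon of the 12 alpha subunits, 1 bar per library, KO-labelled left of WT. Itgav and Itga5 make up most of every bar, and the Itga6 share is larger in each KO-labelled library (12.5% to 13.5%) than in each WT library (8.86% to 9.32%).

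The mRNAs of proteins that switch integrins on were lower for 2 of the 3 genes tested, against 21.3% of all genes tested. Tln2, the less abundant talin, fell to 34.7, 43.8 and 45.9 CPM in KO-labelled libraries, against 89.0, 78.2 and 68.4 CPM in WT libraries, a log2 difference of -0.92 (SE 0.12, edgeR adjusted p = 0.000322). Fermt2, the kindlin of mesenchymal cells, fell to 196 ± 0.783 CPM in KO-labelled libraries, against 275 ± 33.1 CPM in WT libraries, a difference of -0.49 (SE 0.09). Tln1, the main talin, averaged 741 ± 151 CPM in KO-labelled and 916 ± 75.4 CPM in WT libraries. Its difference of -0.31 (95% interval -0.59 to -0.03) did not pass (edgeR unadjusted p = 0.0583, adjusted p = 0.117). KO-labelled library 1 stood apart for Tln1, at 566 CPM beside 823 and 833 CPM, and without it the difference was -0.15. Tln1 was called with chromosome medians taken out (-0.43, edgeR adjusted p = 0.0447), without a count filter (-0.34, 0.00405) and with DESeq2 (-0.32, 0.0468).

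The ILK, PINCH and parvin complex links beta tails to actin. Its 4 genes on the member list fell, against 21.3% of all genes tested, the more abundant ones by small amounts. Of the parvin genes outside that list, Parvb fell by 0.55 (SE 0.07) and Parvg, at a low level, rose to 1.05 ± 0.318 CPM in KO-labelled libraries, against 0.392 ± 0.0931 CPM in WT libraries (1.42, SE 0.33, edgeR adjusted p = 0.0078). Ilk, the pseudokinase at its centre, stood at 179 ± 4.24 CPM in KO-labelled and 208.6 ± 3.73 CPM in WT libraries, a log2 difference of -0.22 (SE 0.06, edgeR adjusted p = 0.0168). Its call was lost without KO-labelled library 2 (edgeR adjusted p = 0.0619), KO-labelled library 3 (0.0698) or WT library 2 (0.0582) and with chromosome medians taken out (0.0641). Ilk shares 2106 exonic bases with Taf10 on the opposite strand, which fell by a similar amount (-0.26). Parva, the alpha-parvin gene, fell to 333 ± 21.4 CPM in KO-labelled libraries, against 409 ± 5.87 CPM in WT libraries (-0.29, SE 0.07). Lims1, encoding PINCH1, fell to 167 ± 5.74 CPM in KO-labelled libraries, against 213 ± 22.2 CPM in WT libraries (-0.35, SE 0.08). It is the neighbour of the targeted gene, ending 22228 bases before Ranbp2 begins on chromosome 10. Lims2, encoding PINCH2, stood at 9.58, 9.42 and 9.77 CPM in KO-labelled libraries, against 14.5, 16.4 and 16.0 CPM in WT libraries, without overlap, a log2 difference of -0.70 (SE 0.09, edgeR adjusted p = 0.000186).

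Of the kinase and scaffold genes, the scaffolds p130Cas and Hic-5 fell and focal adhesion kinase and paxillin did not pass. Tgfb1i1, encoding Hic-5, a paxillin relative induced by TGF-beta, stood at 68.3, 57.4 and 62.4 CPM in KO-labelled libraries, against 127, 122 and 120.2 CPM in WT libraries, a log2 difference of -0.97 (SE 0.08, edgeR adjusted p = 1.08e-05). Bcar1, encoding p130Cas, a substrate stretched by force and phosphorylated by Src, stood at 62.5, 64.2 and 66.9 CPM in KO-labelled libraries, against 103, 97.5 and 93.9 CPM in WT libraries, a difference of -0.61 (SE 0.07, adjusted p = 9.64e-05 by edgeR). Neither gene's groups overlapped. Ptk2, encoding focal adhesion kinase, averaged 94.6 ± 7.27 CPM in KO-labelled and 93.9 ± 1.38 CPM in WT libraries, a difference of 0.01 with a 95% interval of -0.13 to 0.15. Pxn, encoding paxillin, averaged 85.3 ± 4.67 CPM in KO-labelled and 90.2 ± 7.48 CPM in WT libraries, a difference of -0.08 (95% interval -0.24 to 0.07).

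Genes that join the plaque to actin filaments were mostly lower, with 8 of 10 called lower and 1, Tns1, called higher, against 21.3% and 17.6% of all genes tested. Zyx, encoding zyxin, a LIM protein recruited to adhesions and stress fibres under tension, fell the most (ENSMUSG00000029860, chromosome 6, 42349630 to 42360213, plus strand). It stood at 544, 483.5 and 494 CPM in KO-labelled libraries, against 1198, 1104 and 1035 CPM in WT libraries, a log2 difference of -1.13 (SE 0.09, edgeR adjusted p = 9.6e-06). The median of tested genes on chromosome 6 was 0.17. Vcl, encoding vinculin, which binds talin and actin, fell to 475 ± 64.6 CPM in KO-labelled libraries, against 697 ± 12.0 CPM in WT libraries (-0.55, SE 0.10, adjusted p = 0.00204 by edgeR); it shares 2090 exonic bases with Ap3m1 on the opposite strand, which did not pass (0.09). Flnc, a filamin of muscle and stretched cells, fell to 224 ± 34.4 CPM in KO-labelled libraries, against 335 ± 20.1 CPM in WT libraries (-0.58, SE 0.11), and Flna, the main filamin, to 2203 ± 337 CPM in KO-labelled libraries, against 3014 ± 200.3 CPM in WT libraries (-0.45, SE 0.12). The alpha-actinin genes Actn1 and Actn4, whose products cross-link actin, fell by 0.33 and 0.34 (SE 0.09 each). Vasp, which promotes actin elongation, fell by 0.26 (SE 0.07), and Nexn, encoding the F-actin binding protein nexilin, by 0.44 (SE 0.13).

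Some of these calls were lost when 1 library was left out, in fits that have fewer libraries to test with. The Vasp call was lost without KO-labelled library 1 (edgeR adjusted p = 0.0549), KO-labelled library 2 (0.0807), WT library 1 (0.0526) or WT library 2 (0.0823) and with chromosome medians taken out (0.0654). The Nexn call was lost without KO-labelled library 2 (0.0595) or 3 (0.0766) and its difference was -0.29 without WT library 3, while Actn1 (0.0527) and Flna (0.0523) lost theirs without WT library 2, all by edgeR. KO-labelled library 1 held the lowest of the 3 KO-labelled values for 8 of the 10 genes, against 39.7% of all genes tested. Without it Flna stood at -0.33, Flnc at -0.46, Vcl at -0.45, Actn1 at -0.25 and Actn4 at -0.26, all still called.

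Of the tensins, which bind beta tails and actin, the members Tns1 and Tns3 were not called lower, whereas Tns4, outside the member list, fell to 0.214 ± 0.148 CPM in KO-labelled libraries, against 1.49 ± 0.1501 CPM in WT libraries (-2.75, SE 0.40). Tns2, also outside it, stood at -0.25 and did not pass (edgeR adjusted p = 0.0538). Tns4 met the limit of the count filter in full only in the WT libraries. Tns1 rose to 109 ± 10.1 CPM in KO-labelled libraries, against 89.3 ± 2.50 CPM in WT libraries, a log2 difference of 0.29 (SE 0.08, edgeR adjusted p = 0.0161). It lies on chromosome 1, whose 967 tested genes had a median of 0.29, and with chromosome medians taken out its difference was 0.002 and the call was lost (edgeR adjusted p = 0.988). The call was also lost without KO-labelled library 2 (0.0624), KO-labelled library 3 (0.0859) or WT library 2 (0.0509). Tns3 averaged 244 ± 20.7 CPM in KO-labelled and 243 ± 10.3 CPM in WT libraries, a difference of 0.01 (95% interval -0.15 to 0.16). Smooth muscle markers were mixed. Of 5, 4 were tested, 2 fell (Acta2 and Cnn1) and 1 rose (Des, by 1.80), while Smtn did not pass (0.27). Cnn1 met the limit of the count filter in full only in the WT libraries. Over all genes tested 21.3% fell and 17.6% rose. The summed level of the 5 markers, nearly all Acta2, was 2065 to 2296 CPM in KO-labelled and 2976 to 3296 CPM in WT libraries. Myh11, which defines mature smooth muscle, averaged below 0.1 CPM in both groups. Of 5 endothelial markers, 2 were tested and 1, the receptor gene Tek, fell, against the same 21.3% of all genes tested. The list, nearly all Tek, summed to 20.8 to 24.7 CPM in KO-labelled and 35.3 to 39.5 CPM in WT libraries. Cdh5, which defines endothelium, averaged 0.0106 CPM in KO-labelled and 0.131 CPM in WT libraries. The part of these markers in the plaque values was not tested.

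**Figure D4:**
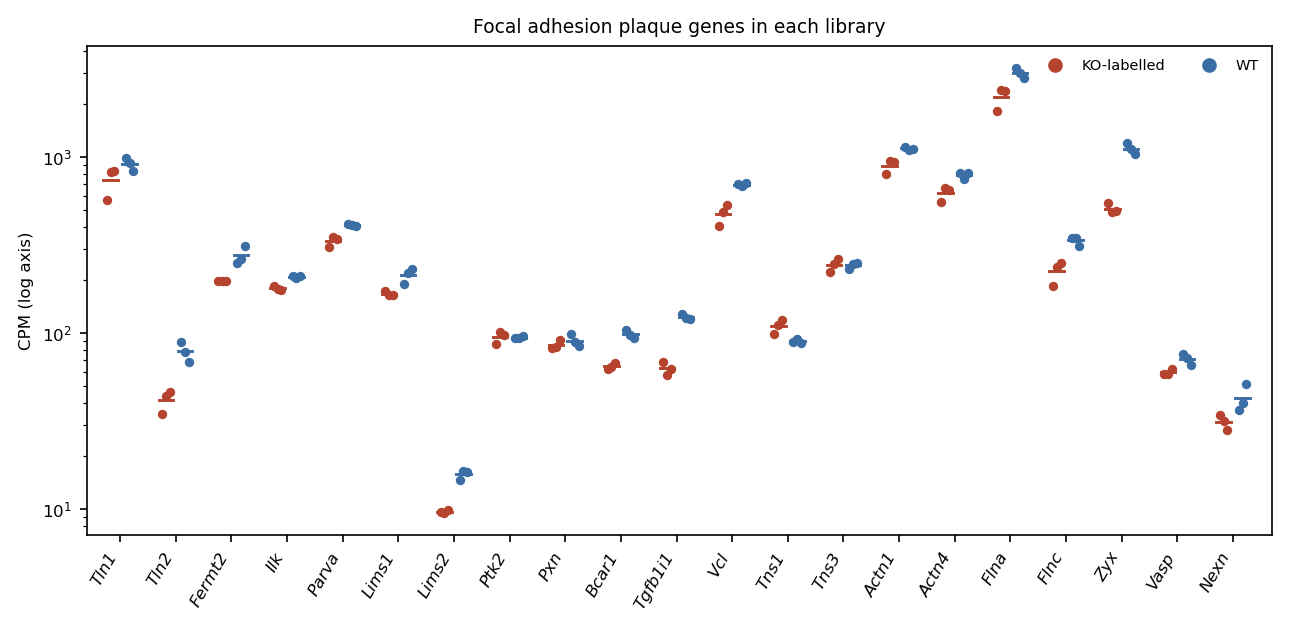
CPM of 21 plaque genes in each library on a log axis, KO-labelled (red) left of WT (blue); short lines are means of 3 libraries. Zyx, Tgfb1i1, Tln2 and Lims2 show wide gaps between the groups, Ptk2, Pxn and Tns3 overlap, and the first KO-labelled point lies lowest for 8 of the 10 actin-linking genes.

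Adhesion genes outside the 41 members mostly leaned the same way, with a few large exceptions. Of 36 other plaque and stress fibre adaptors, 35 were tested, 20 fell and 4 rose, with a median of -0.28; 68.6% were called, against 38.9% of all genes tested (21.3% lower, 17.6% higher). Pdlim1, which binds alpha-actinin, fell to 5.67 ± 0.0524 CPM in KO-labelled libraries, against 35.3 ± 2.57 CPM in WT libraries (-2.64, SE 0.08), and Fblim1, encoding migfilin, a filamin and kindlin partner, to 10.99 ± 1.22 CPM in KO-labelled libraries, against 49.2 ± 1.56 CPM in WT libraries (-2.17, SE 0.09). Sorbs2, encoding an adaptor of stress fibres, rose to 298.5 ± 6.30 CPM in KO-labelled libraries, against 59.6 ± 2.21 CPM in WT libraries (2.32, SE 0.07). Of 28 adhesion signalling genes, 14 fell and 2 rose, with a median of -0.22 (57.1% called, against the same 38.9%). Src, the kinase that works with focal adhesion kinase, fell to 27.9 ± 2.59 CPM in KO-labelled libraries, against 63.7 ± 2.54 CPM in WT libraries (-1.19, SE 0.08). Ptk2b, the relative of Ptk2, was nearly lost, at 0.201 ± 0.123 CPM in KO-labelled libraries against 4.32 ± 0.0546 CPM in WT libraries (-4.40, SE 0.31). It met the limit of the count filter in full only in the WT libraries. Apbb1ip, encoding RIAM, which brings talin to integrins, fell by 0.92 and the kinase gene Pak1 by 0.79 (SE 0.08 each).

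Among 19 membrane partners of integrins, 10 fell and 1 rose, with a median of -0.22 (57.9% called, against 38.9% of all genes tested, 21.3% lower and 17.6% higher). Plaur, the urokinase receptor, fell by 0.81 (SE 0.07), Sdc4, the syndecan of focal adhesions, by 0.51 (SE 0.07) and Cav1, the caveolin gene, by 0.46 (SE 0.07) on the log2 scale, while the tetraspanin gene Cd9 rose by 0.55 (SE 0.07). Of 33 extracellular ligands, 28 were tested, 13 fell and 7 rose, with a median of -0.15 (71.4% called, against the same 38.9%). Postn, encoding periostin, a ligand of αv integrins, rose by 1.92 (SE 0.09), Spp1, encoding osteopontin, which αv and α9 integrins bind, rose by 1.78 (SE 0.08), Lama2, a laminin chain, fell by 4.66 (SE 0.20), and Thbs1, encoding thrombospondin 1, fell by 1.89 (SE 0.14). Of 8 integrin subunits of leukocytes, platelets and epithelia outside the members, 3 were tested and 1 fell, against 21.3% of all genes tested. It was the epithelial subunit gene Itgb6, which fell by 0.61 (SE 0.15). Itgb2, shared by leukocyte integrins, was below 0.2 CPM in both groups. Of the genes named from these lists, Tns4, Ptk2b and Lama2 met the limit of the count filter in full only in the WT libraries. The filter bears on their adjusted p-values, which are not given, and the counts include genes of this kind. The adjusted p-values of the other genes named in these lists as risen or fallen lay below 0.01 (edgeR). The counts also include genes with adjusted p between 0.01 and 0.05.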

How the data were processed

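PolyA RNA of 6 libraries was compared, 3 KO-labelled and 3 WT. The authors deposited expected counts from RSEM, made with cutadapt and GRCm38 per the submitters' processing notes. Neither the aligner nor the strand setting is given in the sources used here. Counts (17.9% not whole) were rounded, filtered with filterByExpr (minimum count 10, minimum total 15) and TMM-scaled. Genotype, the sole term, was tested two-sided by quasi-likelihood in edgeR 4.0.16 under R 4.3.3, with Benjamini-Hochberg adjustment over 15454 genes and a call below 0.05. SEs come from the F statistic, and intervals are 1.96 SE to each side. That multiplier is too small for 3 libraries per group, so the intervals are too narrow. Those of Tln1 and Itgb4 did not include equal levels, although their unadjusted edgeR p was above 0.05. CPM use TMM-scaled sizes; CPM per kb divides by the union of annotated exons, which includes rarely used ones. Names and positions (1-based) came from GENCODE M21 (GRCm38; 55230 identifiers matched, 241 did not), promoters from RefSeq GRCm38.p6. Floors cover counting error only.

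Members and lists were chosen with earlier results of these data known. Members called with at least 1.5-fold change and 1 CPM in the higher group are given per library; of each other list, up to 4 genes with the smallest adjusted p are named (1 that the rule picks is not reported here), and Fn1, Tnc, Egfl6, Vtn, Itgb2, Tns2, Tns4, Parvb, Parvg, Cdh5 and Dcn were named after their values were seen. The script was tested on simulated data. Alternatives were DESeq2 1.42.0, other scalings and filters, each library left out, a replicate block and removal of chromosome medians. No library pair in a group matched within sampling noise.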

Additional observations from a re-analysis of the deposited data

How the results depend on the processing

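Over 13 alternatives, 21 to 26 members were called lower (25 in the main analysis) and 3 to 5 higher (4), with 4353 to 6652 genes called in all (6011). Of the 29 called members, 23 kept their call and direction in all 13, Ilk, Tns1, Actn1, Flna, Vasp and Nexn lost it in at least 1, and 0 reversed; the cause was not tested. With 1 library left out, the members called lower ran from 21 to 25, those called higher from 3 to 5 and all calls from 4353 to 6106. Ranbp2 ranged from 0.22 to 0.37 on the log2 scale and stayed called (largest edgeR adjusted p 0.0459). Replicate numbers did not pair the libraries: deviations of same-numbered libraries correlated at -0.05, -0.12 and -0.13, and only KO-labelled library 1 and WT library 3, and KO-labelled library 3 and WT library 2, exceeded 0.1 (0.10 and 0.22). With the replicate block, 4994 genes, 22 lower and 4 higher members were called, and Ilk, Actn1 and Vasp were not (edgeR adjusted p 0.0687, 0.0545 and 0.0617). Depth limits the members under 1 CPM (Itga2, Itga4 in WT, Itga9 in KO-labelled libraries), and Fermt1 had 0 counts, which allows up to 0.0276 CPM over the KO-labelled and 0.02315 CPM over the WT group.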
